A study of Homo sapiens with 8 samples.

Results

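The nuclear genes for the protein subunits of the mitochondrial respiratory chain and of ATP synthase were followed in MCF-10A, a cell line from non-tumorigenic human mammary epithelium. The 76 genes were chosen by symbol, as the standard subunits of the 5 complexes, and all were found among the 60617 genes of the count table. They comprised 37 genes of complex I, 4 of complex II, 9 of complex III, 11 of complex IV (NDUFA4 was placed here, since its product is a subunit of that complex despite its name) and 15 of ATP synthase. All 76 passed the filter on low counts that left 17693 genes to be tested.

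The samples were poly(A)-selected RNA from cells labelled Empty and cells labelled NeuT. Both were MCF-10A derivatives grown in the same medium with horse serum, epidermal growth factor, hydrocortisone, insulin and cholera toxin. Each line was left untreated or given 1 µM JG-98, an inhibitor of Hsp70 chaperones, over 12 h, which made 4 groups of 2 libraries (8 in all). The labels do not say what the NeuT cells carry, how many clones a line represents or whether replicates came from separate cultures, and the stated aim was to compare the sensitivity of transformed cells to the drug. Keratins of basal and of luminal mammary epithelium were both abundant in every library (KRT5 between 4958 and 8055 and KRT8 between 1894 and 2219 counts per 1000000). The immune marker PTPRC had at most 4 counts in any library. The endothelial marker PECAM1 was at 7.85 to 15.0 counts per 1000000. It was lower in NeuT, with log2 differences of -0.46 untreated and -0.59 under JG-98. The fibroblast markers COL1A1 and PDGFRB together reached 5.16 to 6.27 counts per 1000000. Total counts lay between 55050996 and 56861971 per library except for Empty JG-98 replicate 1, with 37341458.

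The respiratory chain passes electrons from NADH (through complex I) or from succinate (through complex II) by way of complex III and cytochrome c to complex IV, which reduces oxygen. Complexes I, III and IV pump protons across the inner mitochondrial membrane, and ATP synthase uses the return flow to make ATP. Most subunits are encoded in the nucleus, translated in the cytosol and imported with the help of chaperones, while a small set is encoded by mitochondrial DNA. Many of the nuclear genes have binding sites for the transcription factor NRF1 or for ETS-family factors such as GABPA in their promoters.

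Promoter letters are given for members that were lower in NeuT cells, as described below, picked from those that held an NRF1 or ETS string. RefSeq promoter entries (GRCh38.p14, 300 bases each, 250 before and 50 after an annotated start) were matched by symbol for 62 of the 76 members. In the following 40-base windows, written 5′ to 3′ on the gene's strand, capitals mark an NRF1 string (GCGCNTGCG or its reverse complement).
SDHD, chr11:112086747-112086786, plus strand: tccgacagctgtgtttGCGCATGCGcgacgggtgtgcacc
UQCRFS1, chr19:29213159-29213198, minus strand: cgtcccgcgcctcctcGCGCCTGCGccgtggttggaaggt
SDHA, chr5:218139-218178, plus strand: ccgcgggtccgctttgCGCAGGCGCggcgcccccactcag
In the next pair, capitals mark an ETS string (CCGGAAG or its reverse complement).
COX8A, chr11:63974580-63974619, plus strand: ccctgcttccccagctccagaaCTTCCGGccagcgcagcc
NDUFS1, chr2:206159579-206159618, minus strand: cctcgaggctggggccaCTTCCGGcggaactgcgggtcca

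The NRF1 string began 110 bases before the annotated start in SDHD, 31 in UQCRFS1 and 165 in SDHA. The ETS string began 18 bases before the start in COX8A and 157 in NDUFS1. A gene could have several entries (74 for the 62 members) and was counted once if any of them held the string, on either strand. The NRF1 string was found for 23 of the 62 members (37.1%), against 9.01% of all 27305 genes in the table. The ETS string was found for 20 members (32.3%), against 12.2% of all genes. The NRF1 string, the ETS string or both were found for 38 of the 62 members. The YY1 string AAGATGGCG was found for 9 members (14.5%) against 2.14% of genes, and the ATF4 string TGATGNAA for 2 (3.23%) against 4.46%. Of the 35116 single promoters in the table, 7.47%, 10.3%, 1.75% and 3.62% held these strings, in the same order. Matches of different strings overlapped in 0 of the members' entries. The entries of UQCRC2 and NDUFV1 held none of the 4 strings, which says only that these letters are not in those windows.

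Levels were compared between subunits per length, as counts per 1000000 (CPM, scaled by the TMM method to make libraries comparable) per kb of annotated exon. In untreated Empty cells the median over the members was 75.3 CPM per kb in complex IV, 53.0 in complex III, 37.98 in ATP synthase, 15.6 in complex I and 13.4 in complex II. The highest member of all was ATP5F1B, the catalytic beta subunit of ATP synthase, at 487 CPM per kb, and the lowest of its complex was ATP5PO, the stalk subunit also called OSCP, at 8.17. In complex I the highest was NDUFS5, an accessory subunit, at 251 CPM per kb. Complex III ran from CYC1 (cytochrome c1) at 171 down to UQCR11 at 9.82, complex IV from COX6B1 at 145 down to COX6C at 33.3, and complex II from SDHB, its iron-sulfur subunit, at 52.7 down to SDHA, its flavoprotein, at 2.14 CPM per kb. NDUFS5 was at 138 and 137 CPM in untreated Empty, 145 and 136 in Empty with JG-98, 145 and 138 in untreated NeuT and 140.2 and 126 in NeuT with JG-98, with overlapping groups. UQCR11 was at 20.2 and 21.8 CPM in untreated Empty, 24.0 and 22.2 in Empty with JG-98, 23.8 and 22.4 in untreated NeuT and 23.7 and 19.3 in NeuT with JG-98, and ATP5PO, in the same order, at 26.2 and 25.6, 28.1 and 25.6, 24.2 and 25.2, and 24.7 and 19.7 CPM. UQCR11 was not called between the lines, and ATP5PO was called lower in NeuT only under JG-98 (log2 difference -0.27). CYC1 was at 346 and 327, 338 and 348, 305 and 303, and 299.6 and 279.6 CPM, so all 4 NeuT libraries lay below all 4 Empty ones. COX6C, a small subunit of complex IV, was at 92.9 and 87.8, 102 and 80.2, 76.5 and 77.8, and 85.3 and 81.5 CPM. Its Empty and NeuT libraries were apart without the drug and overlapped with it. Exon length here joins all annotated transcripts, so genes with long rare transcripts are placed too low on this scale.

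**Figure D1:**
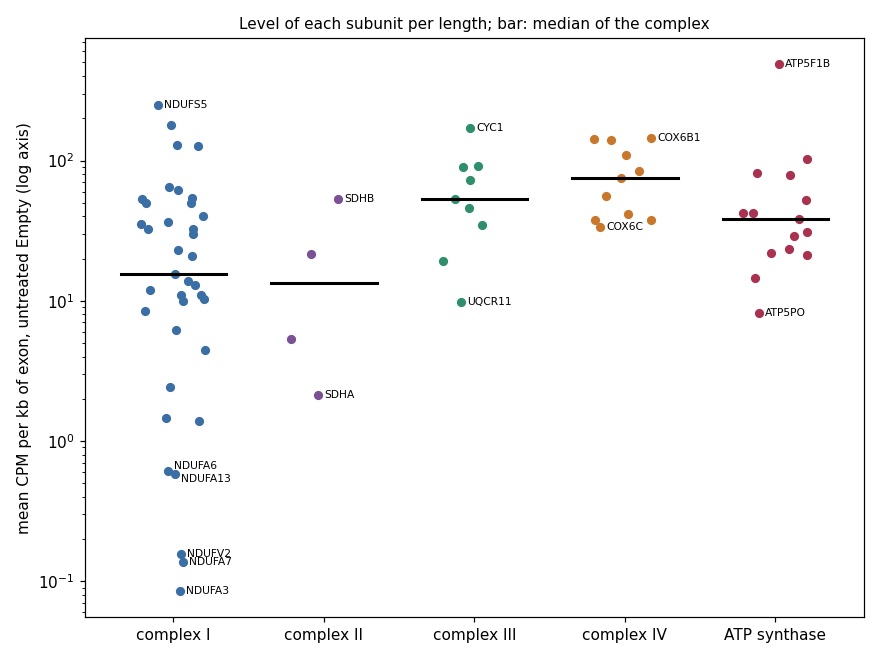
Mean level in untreated Empty cells (n = 2 libraries) of each of the 76 subunit genes, in CPM per kb of exon on a log axis, by complex. Black bars are medians; named points are the highest and lowest of each complex and the 5 genes with a mean under 200 counts, all of them in complex I.

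Some members were hardly counted or shared their sequence with other genes. NDUFA3, an accessory subunit of complex I, had 9 and 15 counts in untreated Empty, 6 and 8 in Empty with JG-98, 31 and 22 in untreated NeuT and 17 and 16 in NeuT with JG-98. In the same order NDUFA7, also accessory, had 15 and 7, 10 and 11, 20 and 22, and 19 and 16 counts. NDUFV2, a core subunit that holds an iron-sulfur cluster, had 23 and 25, 17 and 19, 7 and 15, and 19 and 10. Each of the 3 was thus under 10 counts in at least 1 library. The coding bases of NDUFA7 and NDUFV2 lay in exons of other annotated genes for 78.3% and 84.7%, those of NDUFA3 for 0%. In all, 14 members had over 50% of their coding bases in such exons, among them UQCR11 (100.0%), NDUFB8 (85.2%), SDHA (84.5%), COX8A (55.1%) and NDUFS7 (59.9%). Whether reads there were dropped is not given in the sources used here. Copies elsewhere in the genome also took reads. COX6A1P2 had 30774 counts over the 8 libraries against 20953 for COX6A1 itself, NDUFV2P1 had 1549 against 135 for NDUFV2, and SDHAP4 had 4076 against 7340 for SDHA. The levels of these members are therefore uncertain. At the other end, 61 of the 76 members had over 1000 counts in every library.

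Without treatment, many subunits were lower in NeuT than in Empty cells. Of the 76 members, 26 were called lower in NeuT (34.2%) and 2 higher (2.63%), where called means an adjusted p-value under 0.05 in edgeR's quasi-likelihood test over all tested genes. Over all 17693 genes the shares were 20.8% lower and 21.2% higher. In either direction, 36.8% of the members and 42.0% of all genes were called. The median log2 difference of the members was -0.13 against -0.02 for all genes tested, and 53 of the 76 estimates lay below 0. The falls were modest, since none of the called members differed by more than 0.47 on the log2 scale. CPM is a share of the RNA in a library, so in bulk samples fewer cells with a transcript and less of it per cell cannot be told apart. Proliferation markers differed along with the lines: 10 of 10 were lower in untreated NeuT, with a median log2 difference of -1.46, and their summed level was 2474 and 2481 CPM in untreated Empty against 1018 and 1024 in untreated NeuT. Epithelial markers differed as well. Of 6 basal markers, 4 were called higher in untreated NeuT and 1 lower, with sums of 17591 and 16924 CPM in untreated Empty and 20231 and 20239.7 in untreated NeuT. Of 4 luminal markers, 2 were called higher and 1 lower, with sums of 2862 and 2783 CPM against 3170.0 and 3309. TP63 (log2 difference 1.45) and EPCAM (-1.07) differed most. The part of these markers in the subunit differences was not tested.

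Complex II, which oxidises succinate and belongs to the citric acid cycle as well, had 3 of 4 members called lower (median -0.24), against 20.8% of all genes. SDHD (ENSG00000204370, chromosome 11, 112086824 to 112120016), a membrane anchor of the complex, stood at 59.5 and 60.2 CPM in the untreated Empty libraries and at 43.2 and 42.9 CPM in the untreated NeuT libraries. The groups did not overlap, and the log2 change, -0.47 with an SE of 0.086 (edgeR adjusted p-value 0.000321), was the largest called fall among the members. SDHA was at 18.9 and 18.7 CPM in Empty and 15.4 and 16.3 in NeuT (log2 difference -0.24, adjusted p-value 0.0290 by edgeR). SDHB was at 128 and 131 CPM against 106 and 115 (-0.23, adjusted p-value 0.00728 by edgeR). The other membrane anchor, SDHC, showed no such gap, at 76.4 and 74.2 CPM in Empty and 74.3 and 73.8 in NeuT. Its log2 difference of -0.02 had a 95% interval of -0.15 to 0.10.

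In complex III, 5 of 9 members were called lower (median -0.14), against 20.8% of all genes. UQCRC2 (ENSG00000140740, chromosome 16, 21952660 to 21983660), one of the large core proteins, was at 378 and 386 CPM in untreated Empty and 269.6 and 283 CPM in untreated NeuT. Both NeuT libraries lay below both Empty libraries, and the log2 change was -0.47 with an SE of 0.058 (edgeR adjusted p-value 4.94e-06). UQCRFS1 (ENSG00000169021, chromosome 19, 29205320 to 29213151), the Rieske iron-sulfur protein that takes an electron from ubiquinol, was at 139 and 143 CPM against 104 and 105 CPM. Its log2 difference was -0.43 (SE 0.069, edgeR adjusted p-value 7.73e-05). The other core protein, UQCRC1, fell by 0.26, UQCR10 by 0.24 and CYC1 by 0.14 on the log2 scale. The supernumerary UQCRH, UQCRQ, UQCRB and UQCR11 were not called, with log2 differences from -0.07 to 0.14.

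In complex I, 9 of 37 members were called lower and 1 higher, near the 20.8% of all genes called lower. Of the 7 nuclear core subunits, which carry the flavin, the iron-sulfur clusters and the quinone site, 5 were called lower (median -0.27). Of the 30 supernumerary subunits, 4 were called lower and 1 higher (median 0.03). Under JG-98 the counts were 4 of 7 core (median -0.30) and 9 of 30 supernumerary members called lower (median -0.14), against 20.0% of all genes. The difference between the sets was not tested. NDUFV1 (ENSG00000167792, chromosome 11, 67605653 to 67612554), the flavoprotein that binds NADH, was at 183 and 175 CPM in untreated Empty and 129 and 137 CPM in untreated NeuT. Its log2 change, -0.43 with an SE of 0.058 (edgeR adjusted p-value 1.35e-05), was the largest called fall in the complex. Other called core members included NDUFS1 (-0.31), NDUFS7 (-0.27) and NDUFS3 (-0.22). NDUFV2, also core but with few counts, had an estimate of -1.05 and a 95% interval from -2.19 to 0.09. NDUFA10 (-0.32), NDUFB5 (-0.31), NDUFB1 (-0.28) and NDUFB6 (-0.22) were the supernumerary members called lower. NDUFB7 (ENSG00000099795, chromosome 19, 14566078 to 14572066), an accessory subunit of the membrane arm, went the other way, from 70.3 and 64.5 CPM in Empty to 80.0 and 84.0 CPM in NeuT. Its log2 difference was 0.28 (SE 0.076, edgeR adjusted p-value 0.00612).

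Complex IV had 4 of 11 members called lower and 0 called higher (median -0.16), against 20.8% and 21.2% of all genes. COX8A (ENSG00000176340, chromosome 11, 63974620 to 63976543), a small subunit, was at 71.1 and 69.7 CPM in untreated Empty and 53.8 and 55.5 CPM in untreated NeuT. The groups did not overlap (log2 change -0.36 with an SE of 0.067, edgeR adjusted p-value 0.000297). COX6C (-0.23), COX5B (-0.23) and COX7B (-0.23) were the other calls. COX4I1, the regulatory subunit, was at 410 and 392 CPM against 358 and 378 CPM and was not called (-0.12, edgeR adjusted p-value 0.157). COX6B1 was near equal, at 198 and 198 CPM against 193 and 199 CPM (log2 difference -0.01, 95% interval -0.17 to 0.14).

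In ATP synthase, 5 of 15 members were called lower and 1 higher (median -0.13), against 20.8% and 21.2% of all genes. ATP5F1B (ENSG00000110955, chromosome 12, 56638175 to 56645984) was at 1105 and 1074 CPM in untreated Empty and 828 and 843 CPM in untreated NeuT. The log2 difference was -0.38 (SE 0.052, edgeR adjusted p-value 1.23e-05). Its partner in the catalytic head, the alpha subunit ATP5F1A, fell by 0.30 on the log2 scale, from 575 and 565 CPM to 459.8 and 466 CPM. The membrane ring that carries protons is encoded by 3 genes for the same mature protein, of which ATP5MC3 (-0.25) and ATP5MC1 (-0.24) were called lower and ATP5MC2 (-0.10) was not. ATP5PB, in the peripheral stalk, was the remaining call (-0.16). ATP5MF (ENSG00000241468, chromosome 7, 99448475 to 99466331), a membrane subunit, was higher in NeuT, with 67.1 and 64.6 CPM in Empty and 81.8 and 78.6 CPM in NeuT (log2 difference 0.29, SE 0.085, edgeR adjusted p-value 0.0132). A copy, ATP5MFP2, had 9.96% of the counts of ATP5MF.

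The count of calls depended on the scaling and on single libraries. With total counts in place of TMM scaling, all genes split into 3087 higher and 4505 lower in untreated NeuT, against 3748 and 3675 with TMM, and the members into 1 higher and 36 lower. Under JG-98, described below, the same change moved all genes from 3839 higher and 3541 lower to 3106 and 4465, and the members from 36 to 46 lower. Leaving out untreated Empty replicate 1 or 2, or untreated NeuT replicate 1 or 2, left 15, 13, 13 and 16 members called in either direction, in place of 28. Over all genes the calls went from 7423 to 5532, 5461, 5506 and 5583 in the same fits. The members' median in these fits was -0.11, -0.12, -0.08 and -0.12, in the same order. In each of them the members' share called lower lay nearer that of all genes than in the reported fit. Each leaves 1 library in a group, whose own spread it cannot measure. DESeq2 called 2 members higher and 21 lower, against 20.1% and 18.3% of all genes. For limma-voom the counts were 2 and 25 (21.3% and 20.9% of all genes), for edgeR with RLE scaling 3 and 20 (21.6% and 20.1%). With at least 10 counts required in every library, 3 of 73 members were called higher and 22 lower, against 24.6% and 23.2% of all genes. In the reported fit and the 17 alternatives other than the crossed pairing and the subset of members, 11 members were called lower every time: NDUFA10, NDUFB5, NDUFS1, NDUFV1, SDHD, UQCRC1, UQCRC2, UQCRFS1, COX8A, ATP5F1A and ATP5F1B. The share of all genes called lower every time was not counted, so these 11 have no background to be set against.

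**Figure D2:**
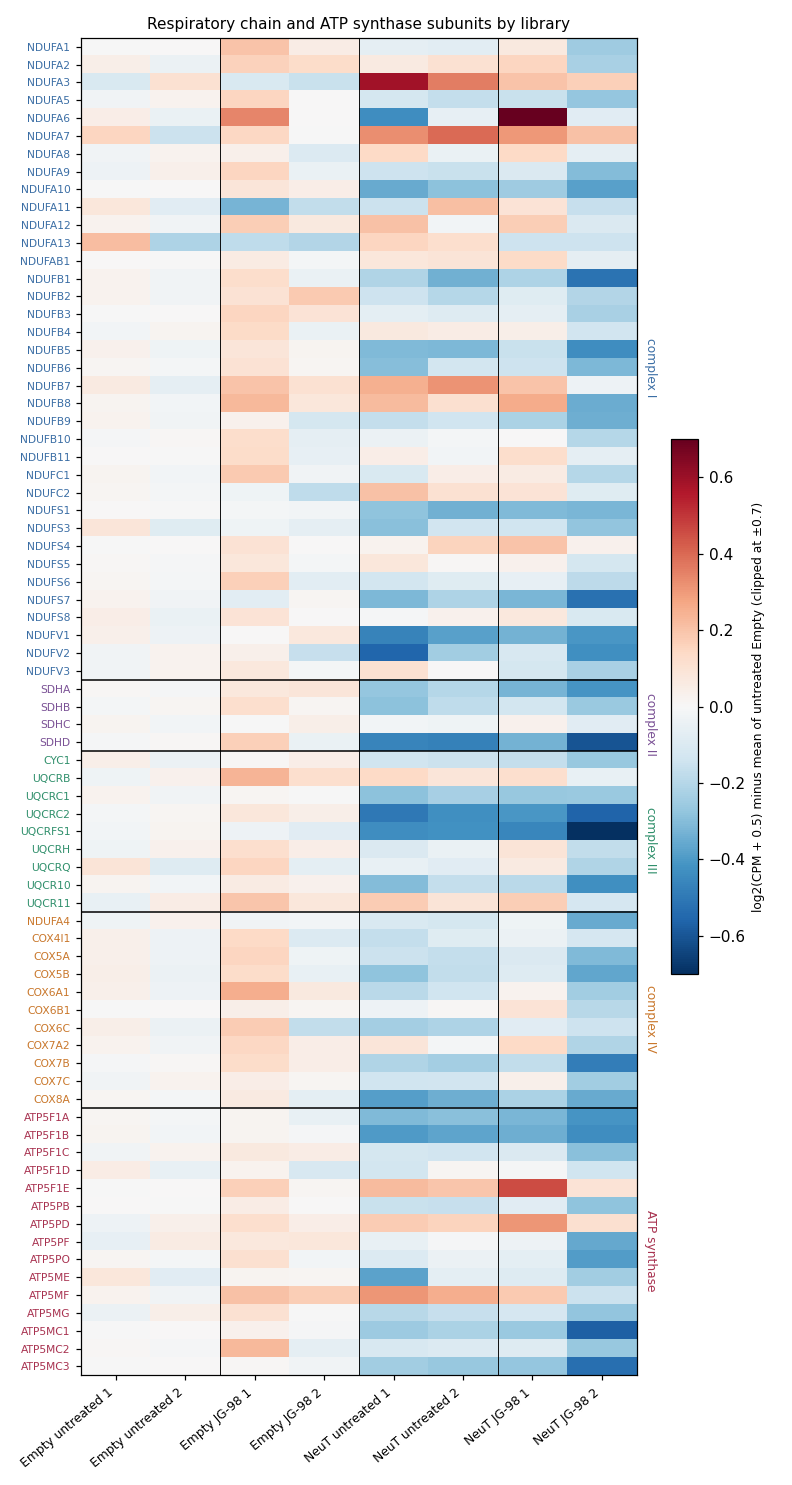
Each of the 75 rows is a subunit and each column a library; colour gives log2(CPM + 0.5) minus the mean of the untreated Empty libraries, clipped at 0.7. Rows such as UQCRC2, UQCRFS1, SDHD and ATP5F1B are blue in all 4 NeuT libraries, and NeuT JG-98 replicate 2 is bluer over most rows than NeuT JG-98 replicate 1.

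With JG-98 in both lines, many subunits were again lower in NeuT. In these libraries 36 of the 76 members (47.4%) were called lower and 0 higher, against 20.0% and 21.7% of all genes, and the median was -0.20 against -0.00 for all genes tested (edgeR, with 41 lower and 0 higher at an unadjusted p-value under 0.05). DESeq2 and limma-voom also called 36 members each. In the same comparison 10 of 10 proliferation markers were called lower (median -1.45), and of 5 stress-response markers 3 were called higher and 1 lower (median 0.94). Of 6 basal epithelial markers 4 were called higher and 2 lower (median 0.55), and of 4 luminal markers 1 higher and 2 lower (median -0.17). The part of these markers was not tested. The calls included 13 members of complex I, 3 of complex II, 5 of complex III, 5 of complex IV and 10 of ATP synthase. The 4 libraries here were other than those of the untreated comparison: 24 members were called lower in both, which is 24 of the 26 calls without the drug and 24 of the 36 with it. Over all genes, 2759 were lower in both, which is 75.1% of those lower without the drug and 77.9% of those lower with it. UQCRC2 was at 403 and 393 CPM in treated Empty and 288 and 259 CPM in treated NeuT (log2 difference -0.54, SE 0.058, edgeR adjusted p-value 8.54e-07). SDHD was at 67.1 and 58.0 CPM against 47.5 and 39.1 CPM (-0.53, SE 0.087, edgeR adjusted p-value 0.000121), and UQCRFS1 at 138 and 134 against 103 and 86.1 CPM (-0.52, SE 0.070, edgeR adjusted p-value 1.04e-05). The ring genes ATP5MC1, ATP5MC3 and ATP5MC2 were all called, with log2 differences of -0.42, -0.39 and -0.26. NDUFB7 and ATP5MF, higher in untreated NeuT, had log2 differences of -0.07 and -0.16 here and were not called.

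**Figure D3:**
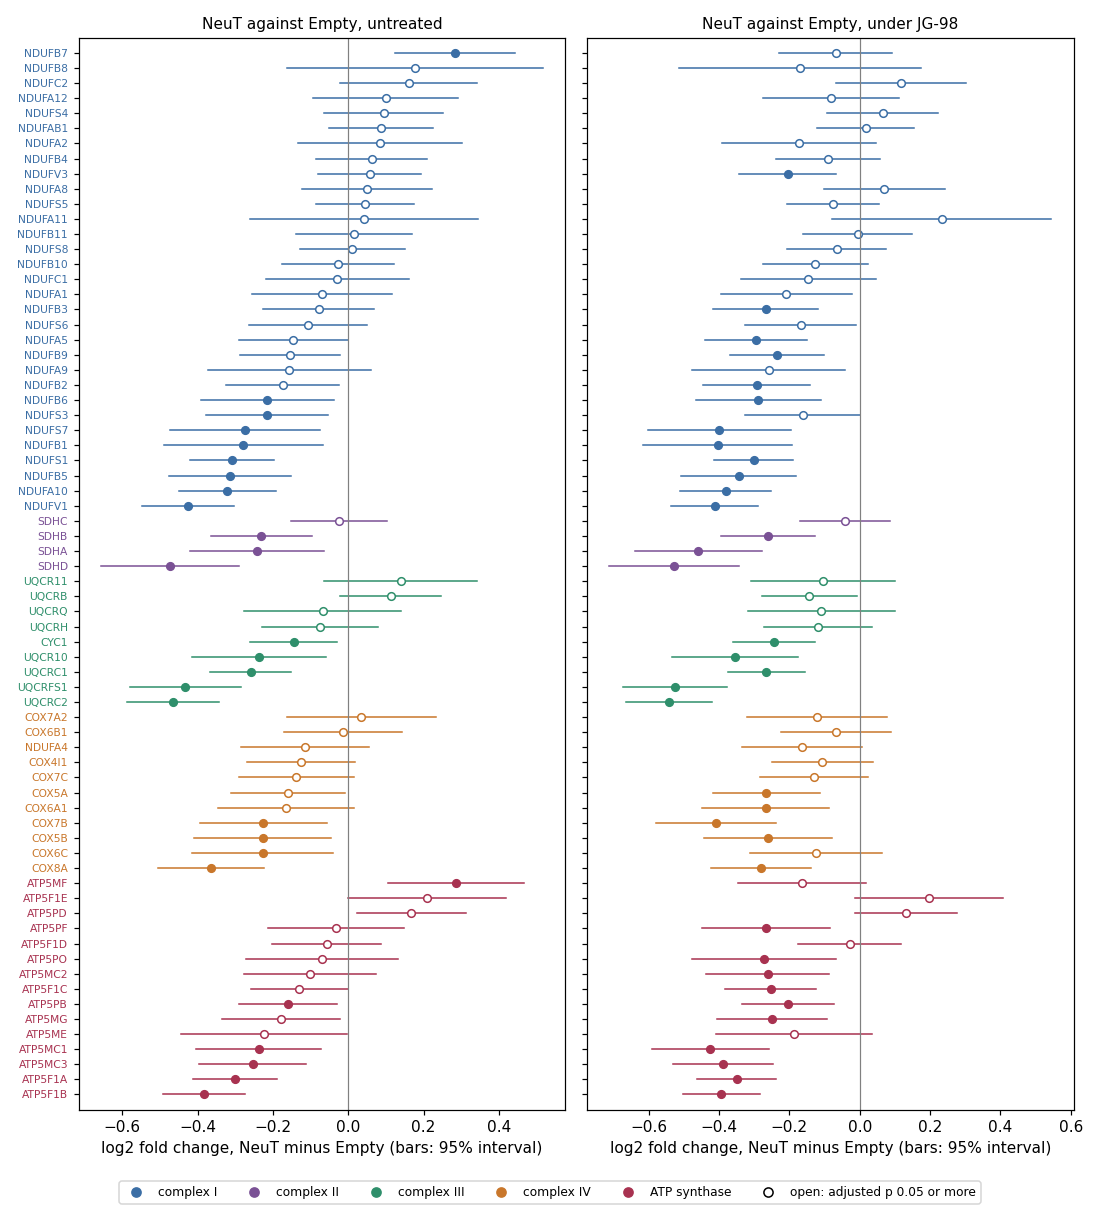
Log2 fold change between lines (NeuT minus Empty) with its 95% interval for 70 subunits with a mean of at least 200 counts, without drug (left) and under JG-98 (right). Filled points were called by edgeR; they lie left of 0 except for NDUFB7 and ATP5MF without the drug.

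This second count also moved when single treated libraries were left out. Without NeuT JG-98 replicate 1, 57 members were called lower with a median of -0.30, against 18.6% of all genes. Without NeuT JG-98 replicate 2, 27 were called lower and 3 higher (ATP5F1E, ATP5PD and NDUFA6), with a median of -0.11, against 17.0% and 18.8% of all genes. Without Empty JG-98 replicate 1, 24 were called lower and 0 higher, with a median of -0.16, against 15.3% and 16.6% of all genes. The set of 24 members called lower in the reported fit and those 17 alternatives held the 11 listed above and 13 others, among them SDHA, SDHB, CYC1, NDUFS7, COX7B, ATP5MC1 and ATP5MC3. Here too the share of all genes called lower every time was not counted.

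JG-98 itself moved no subunit past the threshold in either line. In Empty cells 0 of 76 members were called (edgeR), against 0.339% of all genes, and the smallest adjusted p-value was 0.318, for UQCRB. At an unadjusted p-value under 0.05 there were 2 members, both higher, or 2.63%, against 9.83% of all genes, and DESeq2 and limma-voom called 0. The median was 0.04 and 60 estimates lay above 0, but the median was -0.00 without Empty JG-98 replicate 1 and 0.10 without Empty JG-98 replicate 2. UQCRB, a small subunit of complex III, was at 182 and 189.6 CPM untreated and at 219 and 202 CPM with the drug, a log2 difference of 0.18 with a 95% interval of 0.04 to 0.31. For 69 of the 76 members the 95% interval lay within 0.5 of 0 on the log2 scale. The other 7 were NDUFB8, NDUFA11 and the 5 complex I members with few counts. Leaving out either treated NeuT library, which is in neither group of this comparison but in the common fit, brought the calls in Empty to 2 of 76, UQCRB and ATP5MF, near the share of all genes called in those fits (2.23% and 2.16%).

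In NeuT cells 0 of 76 members were called (edgeR), against 3.01% of all genes, and 6 had an unadjusted p-value under 0.05 (1 higher, 5 lower), against 16.0% of all genes. The median was -0.05, with 55 estimates below 0, and 70 intervals lay within 0.5 of 0. NDUFV3, an accessory subunit next to NDUFV1, had the smallest adjusted p-value, 0.0661. It was at 75.7 and 70.5 CPM untreated and 64.6 and 59.9 CPM with JG-98, a log2 difference of -0.23 (SE 0.065), so that the groups did not overlap. DESeq2 called NDUFV3 (adjusted p-value 0.0310) and NDUFA6 (0.0439), against 4.08% of all genes, and limma-voom called 0. NDUFA6, an accessory subunit, had 28 and 44 counts in untreated NeuT but 165 and 43 with the drug, so its estimate rests on 1 library. In the authors' deposited tables for the drug, all 76 members were listed in each line and 0 had an adjusted p-value under 0.05. The smallest in the authors' deposited table was 0.280 for NDUFB2 in Empty and 0.0847 for NDUFV3 in NeuT.

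The effect of the drug was also compared between the lines. As an interaction of line and drug 0 of 76 members were called (edgeR; DESeq2 and limma-voom also 0), against 0.00565% of all genes, which is 1 gene. At an unadjusted p-value under 0.05 there were 4 members, all with a lower change in NeuT, against 7.79% of all genes. They were ATP5MF (-0.45, 95% interval -0.70 to -0.19), NDUFB7 (-0.35), NDUFV3 (-0.26) and UQCRB (-0.26). The smallest adjusted p-value was 0.441, for ATP5MF. ATP5MF was at 67.1 and 64.6 CPM in untreated Empty and 76.01 and 74.2 with the drug, but at 81.8 and 78.6 CPM in untreated NeuT and 74.9 and 59.2 with it.

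Treated replicates differed from each other. Relative to the untreated mean of its own line, the median member was higher by 0.10 on the log2 scale in Empty JG-98 replicate 1 (65 of 76 above) and -0.00 in Empty JG-98 replicate 2 (38 above, 38 below). In NeuT it was higher by 0.06 in JG-98 replicate 1 (54 above) and lower in JG-98 replicate 2, at -0.15 (71 below). The median of all tested genes stayed within 0.006 of 0 in each library, which the TMM scaling largely sets in advance. The replicate with the higher subunits in Empty was also the one with the fewest total counts, and the treated NeuT replicates had the largest spread over all genes (chi-square statistic per gene of 20.7, against 4.38 to 7.69 in the other groups). The stress-response markers summed to 441 CPM in NeuT JG-98 replicate 1 and 584 in replicate 2, against 184 and 190.2 in untreated NeuT, and the proliferation markers to 924 and 811 CPM in the treated libraries. Their part in the difference between these replicates was not tested. A fit without 1 treated NeuT library takes its spread from the other groups and assumes that the remaining library varies like them, so its calls do not measure the spread of treated NeuT. Without NeuT JG-98 replicate 1, 16 members were called lower with the drug in NeuT and 11 in the interaction, with medians of -0.15 and -0.19. In these fits 5.15% and 1.59% of all genes were called lower, and all calls rose from 533 to 2133 and from 1 to 777. Without NeuT JG-98 replicate 2, 2 members were called higher, ATP5F1E and NDUFA6, against 1.20% of all genes, and the median was 0.05. The direction of the members' median with JG-98 in NeuT therefore differed between its 2 libraries.

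**Figure D4:**
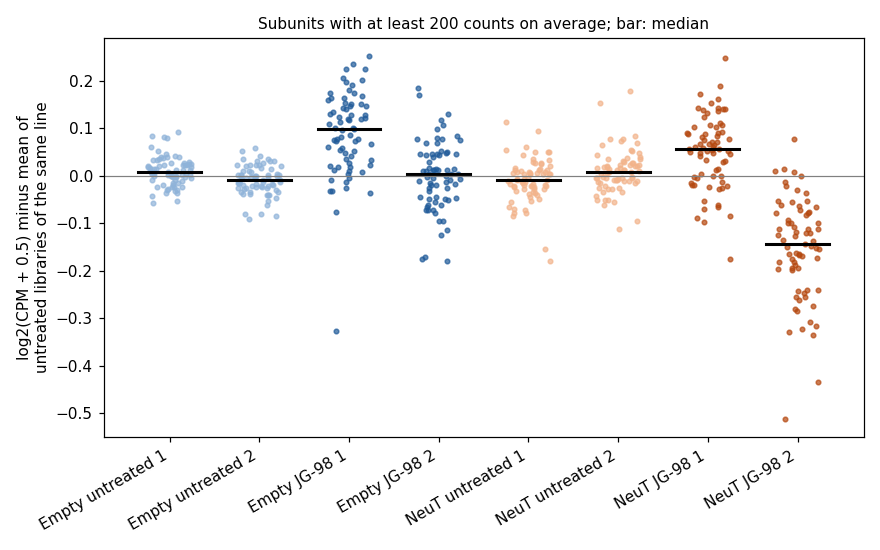
Points are the 71 subunits with a mean of at least 200 counts: log2(CPM + 0.5) in a library minus the mean of the untreated libraries of the same line, with a bar at the median. The bar lies at 0.0572 in NeuT JG-98 replicate 1 and at -0.143 in NeuT JG-98 replicate 2, on both sides of 0.

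Likeness between members was measured by Pearson's r of log2(CPM + 0.5) over the 8 libraries. The members most like SDHD, the member with the largest called fall, were NDUFB5 (0.982), NDUFA10 (0.980), COX8A (0.977), UQCRC2 (0.976) and ATP5MG (0.975). These 8 points share the split between lines and the depth of each library, so the values are a description. As a share of all counts, the members together took 0.937% and 0.935% in untreated Empty, 0.982% and 0.939% in Empty with JG-98, 0.788% and 0.802% in untreated NeuT, and 0.826% and 0.722% in NeuT with JG-98. All 4 NeuT libraries lay below all 4 Empty libraries. This share uses total counts without TMM scaling, a setting in which all genes leaned lower in NeuT. There 4505 genes were called lower and 3087 higher without the drug, and 4465 and 3106 under JG-98. Abundant members such as ATP5F1B weigh heavily in the sum.

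Calls between the untreated lines were also counted by promoter string. Of the 23 members with the NRF1 string, 6 were called lower in untreated NeuT (median -0.13), and of the 39 without it 14 were (median -0.12). For the ETS string the counts were 7 of 20 with it and 13 of 42 without. Over all genes 20.8% were called lower, and these counts in fixed windows were not tested.

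Proteins that build the complexes but are not part of them were given by list. Of 62 assembly factors, all tested, 25 were called lower and 10 higher in untreated NeuT (edgeR, median -0.16), against 20.8% and 21.2% of all genes. Under JG-98, 29 were lower and 7 higher (median -0.20), against 20.0% and 21.7% of all genes. With the drug, 0 were called in Empty and 0 in NeuT by edgeR (2 and 3 at an unadjusted p-value under 0.05, against 9.83% and 16.0% of all genes), DESeq2 called 0 and 1, and limma-voom 0 and 0. For complex II, SDHAF3, which helps to mature SDHB, was at 15.9 and 15.3 CPM in untreated Empty and 10.3 and 10.1 CPM in untreated NeuT (log2 difference -0.62). SDHAF1 also fell by 0.55 on the log2 scale, while SDHAF2, which attaches flavin to SDHA, rose by 0.34. For complex I, 8 of 19 were lower, led by DMAC1 (-0.59) and FOXRED1 (-0.52), and 3 higher, led by NDUFAF8 (0.31) and TMEM126A (0.30). For complex III, 4 of 9 were lower, with UQCC5 (-0.47) and BCS1L (-0.42), which inserts the Rieske protein, at the head. For complex IV, 9 of 25 were lower, led by COX10 (-0.46), which makes heme for the enzyme, and CMC2 (-0.44), and 4 higher, led by PET100 (0.58) and SURF1 (0.55). For ATP synthase, 2 of 5 were lower and 2 higher, by at most 0.26 on the log2 scale.

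Cytochrome c (CYCS), the mobile carrier between complexes III and IV, was at 328 and 324 CPM in untreated Empty and 249 and 250.1 CPM in untreated NeuT (log2 difference -0.38, SE 0.058, edgeR adjusted p-value 4.03e-05). It was the only one of 6 listed carriers and accessory genes to be called without the drug, where 20.8% of all genes were called lower and 21.2% higher. Of 9 alternative subunit isoforms, 4 were tested and 1 was called in untreated NeuT: COX7A1, the heart and muscle form of a complex IV subunit, rose from 13.2 and 10.3 CPM to 19.8 and 22.0 CPM (0.83). COX4I2, COX7B2 and COX8C had 0 counts in all 8 libraries.

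Among 11 transcription factors and coactivators of respiratory genes, 5 were called lower and 4 higher in untreated NeuT, against 20.8% and 21.2% of all genes. NRF1, the factor whose string was searched above, was at 18.7 and 20.3 CPM in untreated Empty and 9.08 and 11.6 CPM in untreated NeuT (log2 difference -0.91, SE 0.114, edgeR adjusted p-value 5.20e-06). PPARGC1B, a coactivator, fell by 0.86 on the log2 scale, TFAM, which packages and transcribes mitochondrial DNA, by 0.54, YY1 by 0.32 and PPRC1 by 0.29. MYC rose from 347 and 337 CPM to 526 and 524 CPM (0.62) and ESRRA rose by 0.22. ESRRG and PPARGC1A were also called higher, at under 0.5 CPM in every library. With JG-98, edgeR called 0 of the 11 in either line (2 in each at an unadjusted p-value under 0.05, against 9.83% of all genes in Empty and 16.0% in NeuT; DESeq2 and limma-voom 0).

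The subunits encoded by mitochondrial DNA could not be read from the table, whose 37 genes of the mitochondrial chromosome had 0 counts in every library. Nuclear copies of those genes did carry counts. Of 404 in the table, 9 were tested, and with JG-98 edgeR called 5 lower in Empty (median -1.79) and 7 lower in NeuT (median -1.60), with 0 called higher, against calls in either direction for 0.339% and 3.01% of all genes. MTND2P28 (chromosome 1, 629640 to 630683) was at 110.3 and 111 CPM in untreated Empty and 55.4 and 49.4 with the drug, and at 154 and 151 CPM in untreated NeuT and 70.4 and 54.2 with it. Summed over the copies, the level was 530.2 to 592 CPM in the 4 untreated libraries and 159 to 216 CPM in the 4 treated ones, so the groups did not overlap. Whether these reads came from the nuclear copies or from mitochondrial transcripts was not tested.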

How the data were processed

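Per the file headers, the authors deposited raw counts per gene for 8 libraries in the layout of featureCounts. The submitters' processing notes name Trim Galore 0.5.0, FastQC 0.11.7, HISAT2 2.1.0, SAMtools 1.9, featureCounts 1.6.3, limma and the builds hg38 and GRCh38. Which annotation release was used, whether strand was read and how multi-mapping reads were treated are not given in the sources used here. The authors also deposited, per line, a comparison of treated and untreated cells, which per the file headers holds log2 changes, average log2 levels, a test score and p-values (raw and adjusted). Columns were matched to samples by name, and 0 columns were left unmatched. A gene name table gave symbols for 60261 of 60617 identifiers. Coordinates are those of the count table, 1-based.

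Counts were analysed with edgeR 4.0.16 in R 4.3.3: filterByExpr (minimum count 10, total 15), TMM factors, and 1 robust quasi-likelihood fit of the 4 group means over all 8 libraries, with Benjamini-Hochberg adjustment over 17693 genes. Standard errors are the log2 change divided by the square root of F. P-values measure the spread between libraries, which may be technical. Alternatives used DESeq2 1.42.0, limma-voom (3.58.1) and other filters, scalings and subsets of libraries. Scripts were tested on simulated data. Same-numbered replicates correlated between -0.101 and 0.244 over 9551 genes, so libraries were treated as unpaired. Coding overlap was taken from GENCODE 29.

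Members and lists were chosen with earlier results of these data known. Members described with values by library were those called for JG-98 or the interaction, per complex the largest called rise and fall between untreated lines, the 5 largest rises and falls over all members, the highest and lowest level per kb of each complex, and members with under 10 counts in a library. For some of them, such as NDUFV1, COX8A and ATP5F1B, only values of the untreated libraries were printed. NDUFS1, NDUFV3, UQCRB, NDUFA6, SDHC, COX4I1 and ATP5F1A and the remaining calls were named after their values were seen. Lists are described by counts, medians and their largest called changes. A count of 0 leaves room for up to 3 counts per library, which covers counting error only, since amplified reads are not independent molecules. The values of 1 member are not reported here, and it has no row in the plots that name each subunit.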

Additional observations from a re-analysis of the deposited data

How the results depend on the processing

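No called value changed sign in any alternative run; the cause of the changes below was not tested. With JG-98 in NeuT, 3 members were called with no filter on low counts (NDUFA6, NDUFV3, ATP5MF), in place of 0, 2 by DESeq2 and 2 with the replicate numbers of untreated NeuT swapped, an alternative added after seeing the data. All genes called in these fits were 3.13%, 4.08% and 4.49%, near or above the members' share. Leaving out single libraries, where the lone library of a group is assumed to vary like the other groups, gave 0 to 16 members there, with medians from -0.149 to 0.0493, 0 to 2 in Empty, with medians from -0.00244 to 0.0971, and 0 to 11 in the interaction, with medians from -0.190 to -0.00551. The interaction gave 1 member with no filter (0.432% of all genes). Between untreated lines, 44 members were called (7 higher, 37 lower) when only the 4 libraries compared were fitted (51.5% of all genes, in place of 42.0%), and 13 to 36 when single libraries were left out, with medians from -0.128 to -0.0797. Under JG-98 the range was 24 to 57 (3 higher calls without NeuT JG-98 replicate 2, 2 with no filter), with medians from -0.300 to -0.107. A replicate block gave 30 calls (3 higher, 27 lower) without the drug, against 21.5% and 20.9% of all genes. Under JG-98 it gave 0 higher and 38 lower, against 21.8% and 20.3% of all genes. For JG-98 in each line and for the interaction it gave 0. No label says that replicate numbers pair the samples, so the block is only a check. Scaling by total counts gave 3087 higher of 7592 calls over all genes without the drug and 3106 of 7571 with it, against 3748 of 7423 and 3839 of 7380 with TMM factors. With only the 69 members of at least 200 counts on average and copies at under 10%, also added after seeing the data, the calls were 2 higher and 25 lower without the drug and 34 lower with it. For pairs of a member and a comparison, each alternative in which the reported fit or the alternative made a call was counted: the call was kept in 971 cases, lost in 117 and gained in 138. Few counts limit NDUFA3, NDUFA7, NDUFV2, NDUFA6 and NDUFA13, whose 95% intervals reach beyond 0.5 on the log2 scale.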
